A study of Mus musculus with 2 samples.

Results

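Lysosomal proteases, hydrolases and membrane proteins formed a group of 38 genes, chosen by symbol from a fixed list, and all 38 were found among the 32285 genes of each of the 12 per-cluster tables. The group held 11 cathepsins and legumain together, 1 cathepsin inhibitor, 13 other soluble hydrolases, 3 activator, chaperone or lipid transfer proteins, and 10 membrane proteins. The lysosome is the acidic organelle in which cells break down material taken up by phagocytosis, endocytosis and autophagy. Cathepsins cut proteins there, glycosidases and lipases cut sugars and lipids, and membrane proteins such as LAMP1 hold the enzymes in and move products out. Many of these genes share an E-box type sequence in their promoters, the CLEAR element, which the transcription factor TFEB and its relatives bind.

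The cells came from the dentate gyrus (DG), the hippocampal region where new neurons form in adult mice, and were sorted for EYFP after Tamoxifen (TAM). The WT mice were NestinCreERT2;VEGFWT/WT;ROSA-STOP-EYFP and the iKD mice were NestinCreERT2;VEGFfloxed;ROSA-STOP-EYFP, so that both genotypes carried the Cre driver and the reporter and both received TAM. The driver limits recombination to cells that expressed Nestin when TAM was given. Each genotype was 1 library of 5 pooled mice, with both sexes combined, collected 21 d after TAM, from mice that were 7 to 10 wk old when the experiment began. With 1 library per genotype no test between genotypes was possible, and every interval below is a 95% interval for counting error only. The deposited tables hold 11 clusters with cell type names and 1 called Undefined, and 6 of the names denote neural stem cells or their progeny: qNSC1, qNSC2, aNSC, NSPCs, IPC1 and IPC2 (quiescent and active neural stem cells, mixed stem and progenitor cells, and intermediate progenitors). Another 2 denote neuroblasts (eNB, NB), 2 denote immature neurons (IN1, IN2), and the last is an astrocyte-named cluster.

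The WT library held 5543 cells with a median of 8051 unique molecular identifiers (UMIs) per cell, and the iKD library held 5261 cells with a median of 7080. Cell barcodes were shared between the libraries in 9 cases. Vegfa, the floxed gene, gave a UMI in 58 of 3752 WT cells of the 6 clusters (1.55%, exact binomial interval 1.18 to 1.99%) and in 31 of 3412 iKD cells (0.909%, 0.618 to 1.29%). Whether the counted 3′ end lies within the floxed part of the gene is not given in the sources used here, so these counts do not check the labels. No row of the tables carried an EYFP symbol.

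The data went against the cluster names. In the 6 clusters with stem or progenitor names, all 10 microglia markers had a UMI in over 50% of cells, with a median share of 99.98%. Neural stem cell markers there had a median share of 0.335% and at most 1.95%, and intermediate progenitor markers a median of 0.014%, with Eomes at 0. Neuroblast markers had a median share of 0.0558%, and border macrophage markers 0.0698% with Lyve1 at 0. The lists for granule neurons, astrocytes, oligodendrocytes and their precursors, endothelium, mural cells, and neutrophils and monocytes had medians from 0 to 3.20%, and choroid plexus markers 0.516%. The microglia markers' summed level was 405 in these 6 clusters and ran from 358 in qNSC2 to 452 in NSPCs over the 8 clusters from qNSC1 to NB. In the astrocyte-named cluster all 8 choroid plexus markers passed 50% of cells, with a summed level of 1081, beside a summed level of 80.9 for the microglia markers. The authors' names are kept below as labels of clusters, and no cell type is read from them. The study's list of cell numbers exchanges the names qNSC1 and qNSC2 relative to its list of cluster genes and to the deposited labels, and the deposited labels are followed here.

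Levels are mean counts per 10,000 UMIs of a cell. UMIs counted 3′ ends of molecules, so the levels were not scaled by gene length. The clusters were formed from all genes, these included, so differences between clusters describe the clusters and carry no test.

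The promoters of the group are shown first. The genes were chosen by symbol and not by sequence. Since the CLEAR element is a known feature of lysosomal genes, its counts here are a description. RefSeq promoter windows of 300 bases (250 before to 50 after each start, build GRCm38.p6) were found for 34 of the 38 genes, and were missing for Ctsb, Ctsh, Npc1 and Asah1. The 30 bases around 1 E-box core are given for 7 genes that recur in the results, 5′ to 3′ on the strand of the gene, with TCACGTG, its reverse complement CACGTGA or the palindrome that joins them in capitals.
Ctsd: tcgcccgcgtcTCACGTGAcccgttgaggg (chr7:142387908-142387937, minus strand, core 98 bases before the start)
Ctsa: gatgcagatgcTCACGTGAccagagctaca (chr2:164833766-164833795, plus strand, core 5 bases after the start)
Lgmn: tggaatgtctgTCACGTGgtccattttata (chr12:102439124-102439153, minus strand, core 49 bases before the start)
Lamp1: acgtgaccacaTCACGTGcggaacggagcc (chr8:13159134-13159163, plus strand, core 15 bases before the start)
Gaa: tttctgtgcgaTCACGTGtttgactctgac (chr11:119267811-119267840, plus strand, core 140 bases before the start)
Gla: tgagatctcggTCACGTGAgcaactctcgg (chrX:134601182-134601211, minus strand, core 194 bases before the start)
Mcoln1: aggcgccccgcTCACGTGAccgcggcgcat (chr8:3500462-3500491, plus strand, core 45 bases before the start)
In the GENCODE annotation of this build, the Ctsd, Ctsa and Mcoln1 windows lay in a 5′ untranslated exon, the Lgmn window in an intron, and the Gaa and Gla windows upstream of the gene model. The Lamp1 core also lay upstream, and the last 3 bases of its window were in the exon. The Gla window also overlapped Hnrnph2.

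The core CACGTG stood in the window of 13 of the 34 genes (38.2%), against 8.09% of all 27025 genes with a promoter in the table. With the flanking T on either strand, TCACGTG stood in 11 of 34 (32.4%) against 4.29%. The palindrome TCACGTGA stood in 5 of 34 (14.7%) against 1.12%. The 3 motifs are nested, so these counts are not separate. The other genes with TCACGTG were Glb1, Naglu, Sgsh and Cln3, and Ctsf and Ctsl held the core alone. The window of Lamp1 held 4 cores. A match in a window of this length describes the sequence and does not show that a factor binds there.

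Across the clusters, the summed level of the 38 genes was highest in NSPCs at 787 and in qNSC1 at 763. In the other 6 clusters of the range qNSC1 to NB it lay between 579 in eNB and 630 in NB. The log2 of the highest over the lowest of these 8 was 0.44, and NSPCs and eNB were the ends of the range in each library alone. Cst3 supplied 60.9% of the group's UMIs over the 8 clusters. Without Cst3 the order changed, and qNSC1 led with 357 before NSPCs with 288 and eNB with 230. In single cells the group took a median of 7.55% of a cell's UMIs in qNSC1 and 7.79% in NSPCs, and without Cst3 3.49% and 2.84%.

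**Figure D1:**
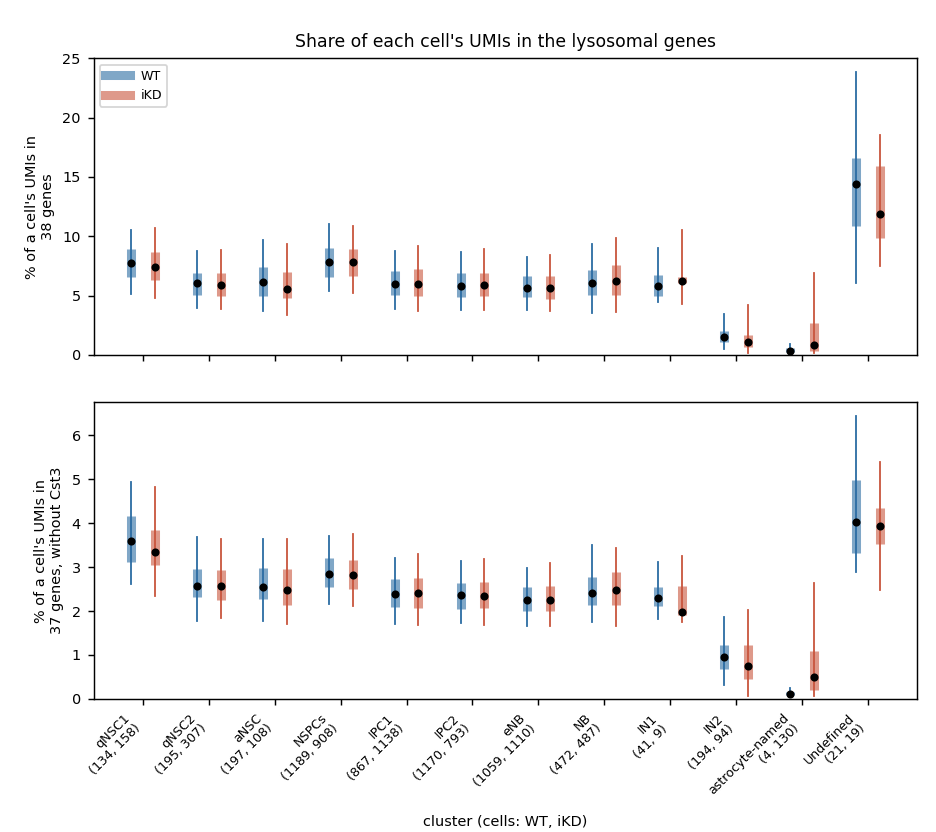
Share of each cell's UMIs (y axis, percent) in the 38 genes (top) and in 37 genes without Cst3 (bottom), by cluster and library. Dots are medians over cells, thick bars the middle 50% and thin lines the 5th to 95th percentile; with Cst3 left out, qNSC1 stands highest of the 8 clusters from qNSC1 to NB in both libraries, and the Undefined cluster stands above all of these.

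Over these 8 clusters 36 genes passed a floor of 0.1 in level, and 21 of them had their highest level in qNSC1, where 24.5% of all 8727 genes past the same floor did. For 13 of the 36 the level in qNSC1 lay beyond the counting interval of the second cluster, against 5.79% of all genes. In NSPCs 6 of the 36 were highest, against 12.5% of all genes, and 3 of these lay beyond the interval of the second cluster, against 1.64%. In qNSC2 4 of the 36 were highest, against 9.81%, and 3 lay beyond the interval of the second cluster, against 1.7%. Small clusters have wider counting error, which by itself can place a gene at an extreme. Counting intervals also narrow as UMIs rise, so a strongly counted gene lies beyond the second cluster's interval more easily. Many members were counted far above the floor, and all genes were not matched to them in level. Of all 38 genes, 34 had the same highest cluster in both libraries, and this share was not taken over all genes. In eNB 14 of the 36 were lowest, against 7.99% of all genes, and 0 were highest in eNB, IPC1 or IPC2, against 15.6% of all genes over the 3 clusters.

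**Figure D2:**
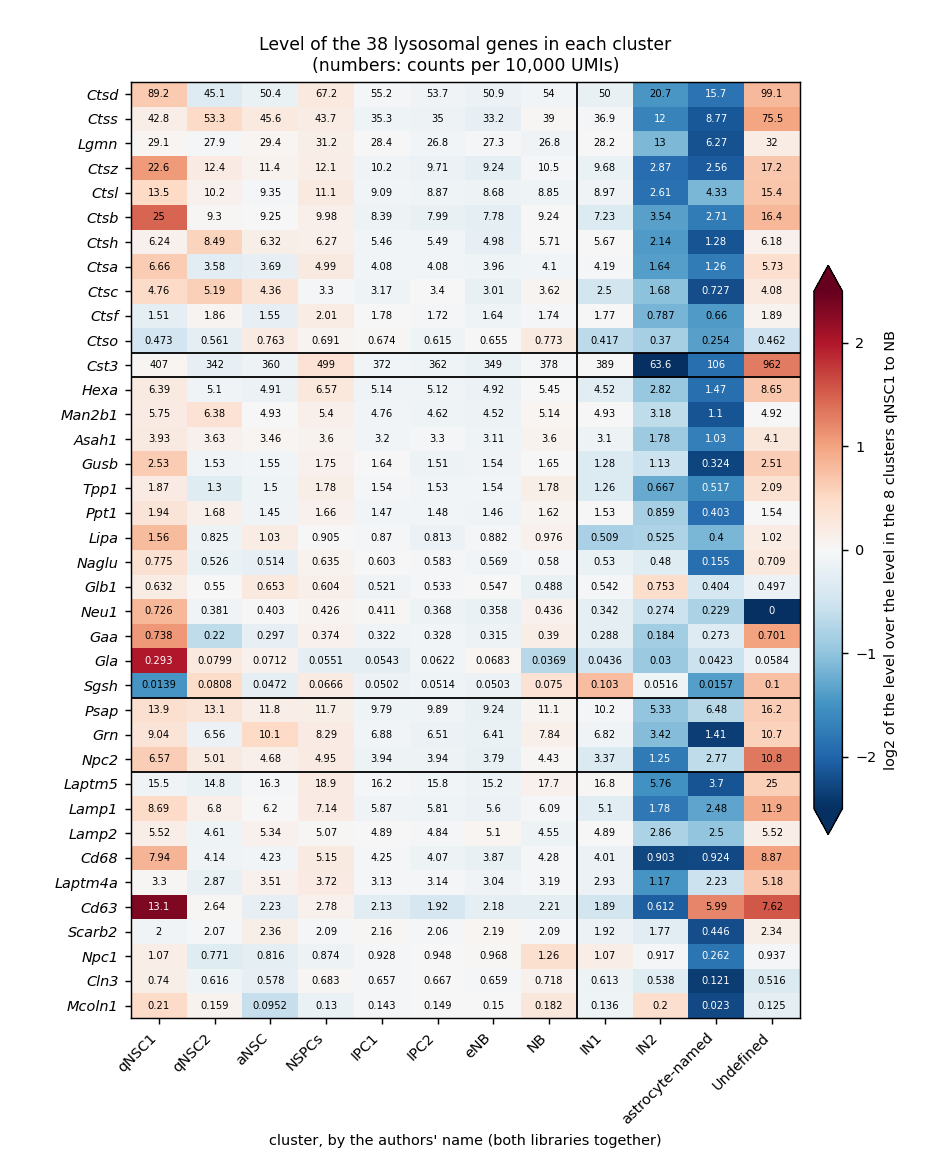
Levels of the 38 genes (rows, grouped by role, separated by black lines) in the 12 clusters (columns); numbers are counts per 10,000 UMIs and colors the log2 of that level over the level in the 8 clusters left of the vertical line. Cd63, Ctsb and Gla stand out in qNSC1, and most genes are low in IN2 and in the astrocyte-named cluster.

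The cluster named qNSC1 (134 WT and 158 iKD cells) had more members at a higher level than any other of the 8 clusters. Against the other 7 clusters pooled, 19 of the 36 genes past the floor over the 8 clusters were higher by at least 0.25 on the log2 scale, beside 22.8% of all 8727 genes. A single member, Ctso, was lower by that much, beside 27.4% of all genes. The median log2 fold over the 38 members was 0.34, against -0.03 over all genes past the floor. The fold was at least 2 for 4 of the 36 members (Cd63, Ctsb, Gaa and Ctsz), beside 2.01% of all genes. Gla reached the floor in qNSC1 alone and is left out of these counts. The number higher past the 0.25 limit was 6 of 11 for the cathepsins and legumain, 6 of 11 for the other hydrolases past the floor, 3 of 3 for the activator and transfer proteins, and 4 of 10 for the membrane proteins.

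Cd63, a tetraspanin of late endosomes, lysosomes and exosomes, showed the widest range of the genes past the floor. Its level in qNSC1 was 14.3 in the WT library and 12.1 in the iKD library, and 13.1 over both. In the other 7 clusters it lay between 1.92 in IPC2 and 2.78 in NSPCs, so that qNSC1 stood apart in both libraries. The log2 fold over those 7 clusters pooled was 2.52 (interval 2.47 to 2.58). After each cell was thinned to 4500 UMIs, 57.2% of 285 qNSC1 cells held at least 5 Cd63 UMIs, against 1.34 to 4.50% of cells in the other 7 clusters. In a thinned qNSC1 cell the median was 5 Cd63 UMIs, and 5.61% of the cells had none.

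Ctsb, the cysteine protease cathepsin B, had a level of 26.9 in WT and 23.5 in iKD qNSC1 cells. The other 7 clusters lay between 7.78 and 9.98, again without overlap. The log2 fold was 1.53 (1.49 to 1.57). At least 5 thinned Ctsb UMIs were present in 87.4% of qNSC1 cells, against 27.8 to 44.4% elsewhere. Ctsz, cathepsin Z, a carboxypeptidase, reached 23.6 in WT and 21.8 in iKD qNSC1 cells, against 9.24 to 12.4 in the other clusters, a log2 fold of 1.11 (1.07 to 1.15).

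Among the other proteases, the aspartic protease cathepsin D gave a Ctsd level of 89.2 in qNSC1 (93.4 in WT, 85.6 in iKD), against 45.1 in qNSC2 to 67.2 in NSPCs. Its log2 fold was 0.68 (0.66 to 0.70). Ctsa, which encodes the protective protein that stabilizes β-galactosidase and neuraminidase, was higher by 0.66, the endopeptidase gene Ctsl by 0.52 and Ctsc by 0.49. Legumain, the asparaginyl endopeptidase that processes several cathepsins, stayed nearly level, with a Lgmn log2 fold of 0.04 (0.01 to 0.08). Ctss, Ctsh and Ctsf had log2 folds of 0.17, 0.12 and -0.24, short of the 0.25 limit. Ctso was the exception, with a level of 0.473 in qNSC1 and 0.668 in the other clusters, a log2 fold of -0.49 (-0.77 to -0.22).

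Among the hydrolases, Gla, the α-galactosidase A deficient in Fabry disease, had a level of 0.293 (0.226 to 0.373) in qNSC1 and of 0.0799 or less in each of the other 7 clusters. The fold rested on 65 Gla UMIs in qNSC1, with a log2 value of 2.13 (1.73 to 2.51). Gaa, the acid α-glucosidase that degrades glycogen, stood at 0.836 in WT and 0.654 in iKD qNSC1 cells and between 0.22 and 0.39 elsewhere, a log2 fold of 1.12 (0.89 to 1.34). Neu1 (sialidase), Lipa (acid lipase) and Gusb (β-glucuronidase) were higher by 0.86, 0.81 and 0.65, and Naglu and Ppt1 by 0.39 and 0.34. Glb1, Man2b1, Tpp1, Asah1 and Hexa had log2 folds from 0.20 to 0.24. Sgsh, a heparan sulfate sulfatase, was under the floor, with a level of 0.0139 in qNSC1.

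Npc2, a lipid transfer protein that hands cholesterol to the membrane protein NPC1, was higher in qNSC1 by 0.63, Psap, the saposin precursor, by 0.41 and Grn, progranulin, by 0.33. Of the membrane proteins, the macrosialin gene Cd68 was higher by 0.88, Lamp1 by 0.50 and the calcium channel gene Mcoln1 by 0.50 (0.06 to 0.90, on 50 UMIs). Npc1 had a log2 fold of 0.18 (-0.01 to 0.36), Lamp2 of 0.16, Cln3 of 0.15 and Laptm4a of 0.02. Scarb2 (-0.09) and Laptm5 (-0.09) were slightly lower. The cathepsin inhibitor gene Cst3 lay at 407 in qNSC1, with a log2 fold of 0.06.

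**Figure D3:**
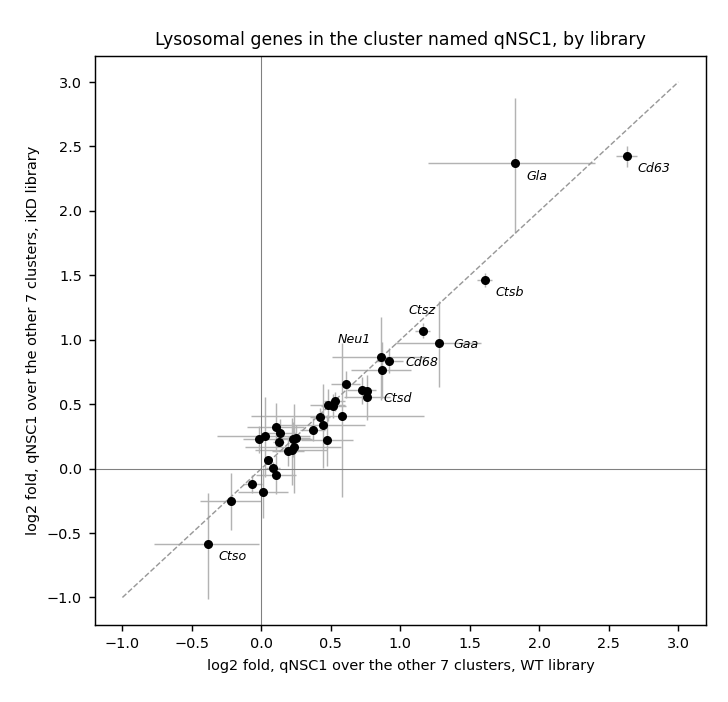
Log2 fold of qNSC1 over the other 7 clusters in the WT (x axis) and iKD (y axis) library for the 36 genes past the floor over the 8 clusters and for Gla, which reached it in qNSC1 alone, with 95% counting intervals; the dashed line marks equal folds. Cd63 lies at 2.63 and 2.43, Ctsb at 1.61 and 1.46, and Ctso lies below 0 in both.

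Both libraries gave log2 folds above 0 for 30 of the 36 genes, beside 33.8% of all genes. The cluster's other genes moved beside these values. The microglial receptor P2ry12 had a level of 16.3 in qNSC1 and 30.8 in the other 7 clusters, and Tmem119 6.76 and 12.8. Apoe, an apolipoprotein, was higher in qNSC1 by 1.82 on the log2 scale. Their part in the lysosomal pattern was not tested.

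Within qNSC1, the levels of Ctsz, Ctsb and Ctsd were also positively correlated with Cd63 from cell to cell. Over 285 cells thinned to equal depth, which came from 2 libraries, Spearman's rho was 0.557 between Cd63 and Ctsz (0.587 in WT, 0.515 in iKD), 0.456 between Cd63 and Ctsb, and 0.451 between Cd63 and Ctsd. Between Cd63 and Ctss, which was highest in another cluster, rho was -0.13. Between Cd63 and P2ry12 it was -0.29, and between Ctsb and P2ry12 -0.33. With Apoe, rho was -0.05 for Cd63 and -0.12 for Ctsb, and between Cd63 and Lgmn it was 0.08. In 1965 thinned NSPCs cells rho with Cd63 was 0.14 for Ctsz, 0.17 for Ctsb, 0.12 for Ctsd and -0.06 for P2ry12, each weaker than in qNSC1. Other pairs were stronger there, with 0.20 for Cd63 and Apoe, and 0.22 for Ctsd and Cst3 against 0.04 in qNSC1. A thinned NSPCs cell held a median of 1 Cd63 UMI, and 39.0% of these cells held none. Counting error is larger at such counts, and its part in the weaker values was not tested. These are descriptions over cells that share libraries.

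The cluster named qNSC2 (195 WT and 307 iKD cells) had counts close to the share among all genes. Of 36 genes past the floor 5 were higher by at least 0.25, beside 11.5% of all genes, and 5 were lower, beside 15.6%. The values of these 10 genes follow as a description. Ctsc, the dipeptidyl peptidase that activates serine proteases of immune granules, led with a level of 5.36 in WT and 5.08 in iKD cells and a log2 fold of 0.63 (0.57 to 0.70). Ctsh, an aminopeptidase, had 8.67 and 8.37, with a log2 fold of 0.60. Ctss, the cathepsin that trims invariant chain for antigen presentation, had 54.4 and 52.6, against 33.2 to 45.6 in the other 7 clusters over both libraries, and a log2 fold of 0.51 (0.49 to 0.53). Man2b1, the lysosomal α-mannosidase, and Psap were higher by 0.38 and 0.34.

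The genes lower in qNSC2 were Gaa (-0.65), Ctsd (-0.34), Npc1 (-0.32), Tpp1 (-0.31) and Ctsa (-0.27). Ctsd and Gaa, both high in qNSC1, were at their lowest of the 8 clusters in qNSC2, at 45.1 and 0.22. The 2 clusters with quiescent stem cell names thus lay at opposite ends for these genes.

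In NSPCs (1189 WT and 908 iKD cells) 11 of 36 genes were higher by at least 0.25, beside 12.8% of all genes, and 0 were lower, beside 23.8%. Cst3, cystatin C, a secreted inhibitor of cysteine cathepsins, led with 500.6 in WT and 497 in iKD cells, against 342 to 407 in the other 7 clusters, a log2 fold of 0.46. Hexa, the α subunit of β-hexosaminidase, was higher by 0.35 and Ctsd by 0.32. The remaining 8 (Ctsl, Ctsa, Cd68, Npc2, Lamp1, Laptm4a, Grn and Laptm5) lay between 0.25 and 0.29, close to the limit, and the count was 4 with a pseudocount of 1 and 7 in the iKD library alone. The microglia markers' summed level was also highest in NSPCs among the 8 clusters.

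**Figure D4:**
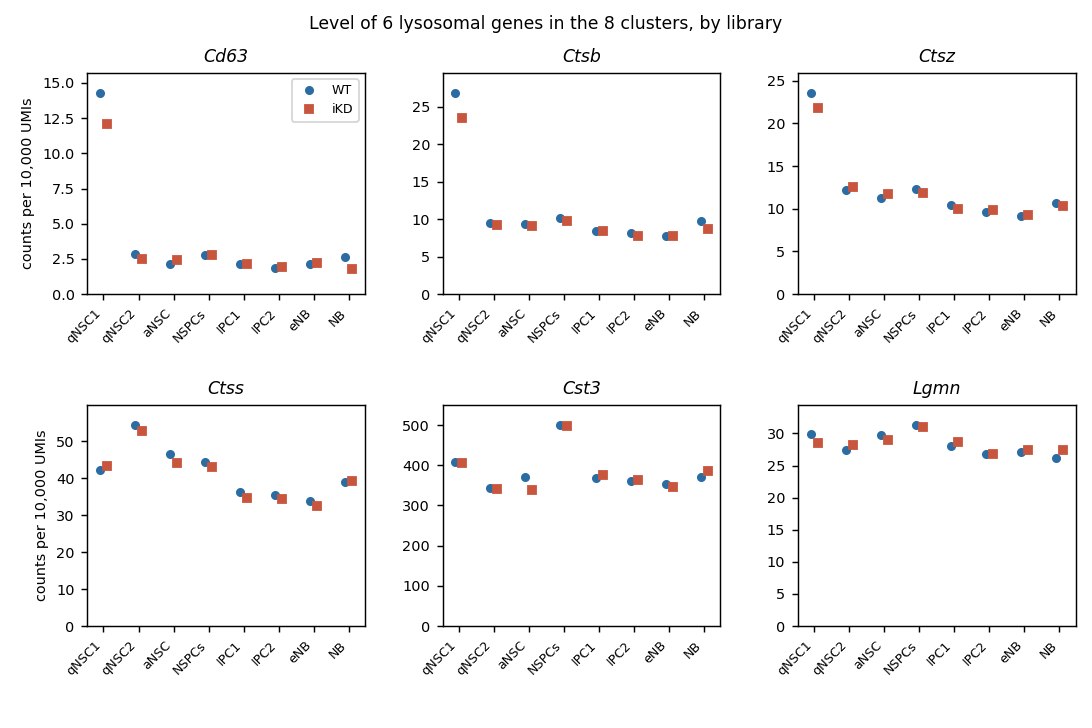
Levels (counts per 10,000 UMIs) of Cd63, Ctsb, Ctsz, Ctss, Cst3 and Lgmn in the 8 clusters, with 1 point for the WT and 1 for the iKD library; counting intervals are not drawn. Cd63, Ctsb and Ctsz peak in qNSC1, Ctss in qNSC2 and Cst3 in NSPCs in both libraries, while Lgmn varies little.

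In aNSC 3 of 36 genes were higher by at least 0.25, beside 10.7% of all genes, and in NB 2 of 36, beside 19.1%. The values of single genes follow as a description. Grn had its highest level in aNSC, with 10.6 in WT and 9.33 in iKD cells, and a log2 fold over the other 7 clusters of 0.51 (0.45 to 0.56). Mcoln1 was lowest there, at 0.0952, on 25 UMIs. Npc1, the membrane protein that exports cholesterol from lysosomes, was highest in NB, at 1.29 in WT and 1.24 in iKD cells, with a log2 fold of 0.45 (0.35 to 0.56). Its level there did not lie beyond the counting interval of the second cluster, qNSC1, at 1.07. The number of members higher by 0.25 was 0 in IPC1 (2.54% of all genes), 0 in IPC2 (3.01%) and 0 in eNB (5.17%).

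Of the 4 clusters outside these 8, IN2, the astrocyte-named and the Undefined cluster had summed levels beyond the range of the 8, and IN1, with 50 cells and a sum of 623, lay within it. In IN2, whose cells had a median of 3103 UMIs, 33 of 36 genes were lower than in the 8 clusters by at least 0.25, beside 37% of all genes, and the summed level was 164. Cst3 differed most, with a level of 63.6, and Cd68 and Cd63 had levels of 0.903 and 0.613. The microglia markers were also lower in IN2, with a summed level of 143.

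In the astrocyte-named cluster, whose markers were those of choroid plexus, 34 of 35 genes were lower, beside 55.6% of all genes, and the summed level was 187. Cd63 alone was higher, beside 34.7% of all genes, at 5.99 (5.52 to 6.49) against 2.58 in the 8 clusters. A Cd63 UMI was present in 89.6% of these 134 cells, of which 130 came from the iKD library, so its level there is nearly a value of 1 library. Ctss, by contrast, had a UMI in 67 of the 134 cells.

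The 40 Undefined cells had the highest summed level, 1369, and a median of 2573 UMIs per cell. Of 36 genes 21 were higher there by at least 0.25, beside 34% of all genes. Cst3 reached 962 and Npc2 10.8, while Neu1 had no UMI in these cells. Cd63 was higher by 1.56 (1.22 to 1.88) and Cd68 had a level of 8.87 against 4.42 in the 8 clusters.

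Between genotypes the levels of the group lay close together. Over the 6 clusters pooled, the summed level was 671 in WT and 663 in iKD cells, a log2 ratio of -0.016 (-0.019 to -0.013). Without Cst3 it was 262.4 and 260.7, a ratio of -0.0092 (-0.014 to -0.0045). Of 36 members past the floor, 0 were lower in iKD by at least 0.25, beside 2.18% of all 8712 genes, and 0 were higher, beside 1.94%. The counting interval left out 0 for 11 members, beside 25.2% of all genes. The median log2 ratio of the members was -0.014, against 0.012 over all genes.

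The most strongly counted members gave narrow intervals. Cst3 stood at 408 in the WT and 402 in the iKD library, for a log2 ratio of -0.021 (-0.025 to -0.017). Ctsd had 58.4 and 59.2, a ratio of 0.018 (0.0076 to 0.028). Ctss had 40.3 and 39.1, a ratio of -0.042 (-0.055 to -0.030). For these 3 genes a change of the size of the limit would have exceeded the counting error between these libraries. Lgmn had 28.8 in both libraries, Laptm5 16.8 and 16.7, Ctsz 11.4 and 11.3, and Psap 10.8 and 10.9, with intervals that include 0. Ctsl had 10.1 and 9.74 (-0.046), Ctsb 9.63 and 9.41 (-0.035), and Grn 7.46 and 7.33 (-0.025).

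The largest negative ratios past the floor belonged to Laptm4a, a small membrane protein, with 3.41 in WT and 3.21 in iKD cells and a log2 ratio of -0.086 (-0.13 to -0.043), and to Tpp1, a tripeptidyl peptidase (-0.063, -0.12 to -0.0018). Asah1, the acid ceramidase, had -0.054, Ppt1, a palmitoyl-protein thioesterase, -0.05, and Npc2 -0.049. Positive ratios were led by Mcoln1, with 0.12 (-0.092 to 0.32) on 416 WT and 359 iKD UMIs. Man2b1 had 4.98 and 5.18, a ratio of 0.057 (0.023 to 0.092), and Neu1, Naglu and Scarb2 had 0.042, 0.030 and 0.023. Gla and Sgsh, under the floor in the pooled clusters, had ratios of -0.10 (-0.40 to 0.20) and -0.087 (-0.43 to 0.26), and these intervals reached past -0.25 for both genes and past 0.25 for Sgsh. The other 16 members had ratios between -0.042 (Npc1) and 0.020 (Hexa).

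**Figure D5:**
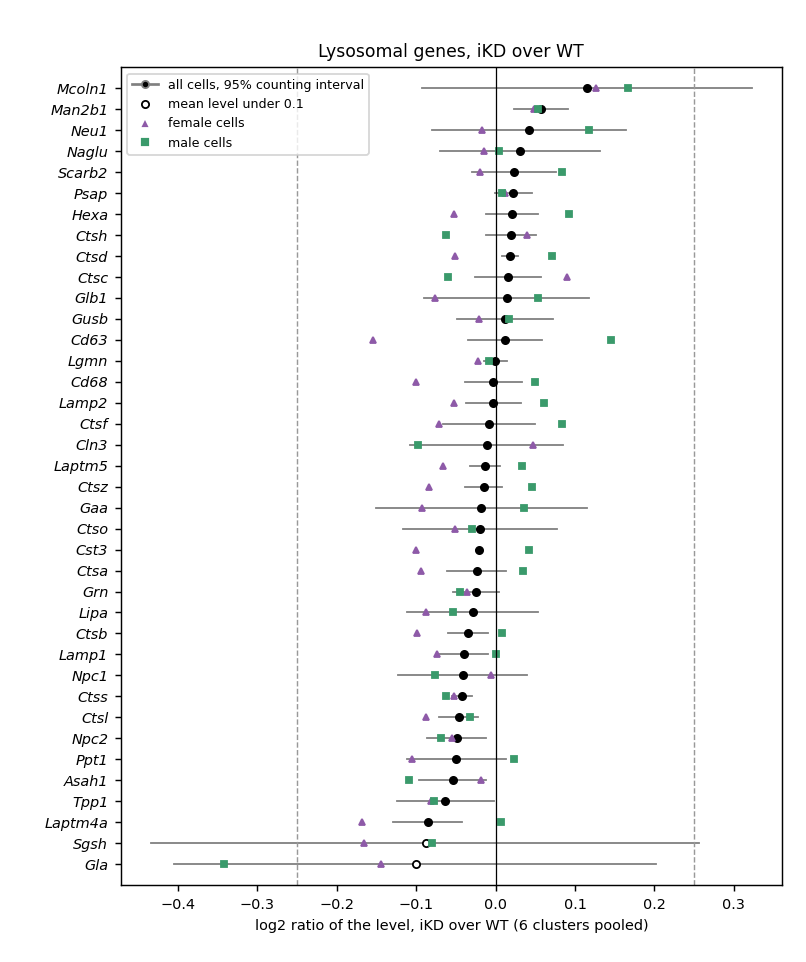
Log2 ratio of the level in iKD over WT cells (x axis; 6 clusters pooled) for each gene (y axis), with 95% counting intervals as lines, open circles for the 2 genes with a mean level under 0.1, and triangles and squares for female and male cells alone. All circles lie between the dashed lines at -0.25 and 0.25.

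The cells' sex, scored from Xist and 4 Y-linked genes, moved with this comparison. Female cells made up 47.0% of WT and 65.4% of iKD cells in the 6 clusters. In female cells alone the summed level was 705 in WT and 667 in iKD (log2 ratio -0.08), and in male cells 635 and 648 (0.03). The median log2 ratio of the members was -0.054 in female cells, against 0.016 over all genes. In male cells it was 0.0077, against 0.016. Sex and cluster were tied together, since 6.37% of IPC2 cells but 85.9% of IPC1 cells were female. The female cells of the libraries also differed in cluster make-up. NSPCs, with a high summed level, held 829 of 1765 WT and 656 of 2230 iKD female cells of the 6 clusters. The part of this make-up in the female ratios was not tested. Within the 4 clusters with both sexes in number, female ratios of the sum were -0.08 in qNSC1, -0.04 in qNSC2, -0.02 in NSPCs and 0.05 in NB, and male ratios 0.08, 0.02, 0.04 and 0.07. The direction of so small a difference thus depended on which cells were taken.

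Other signals also differed between the libraries. The choroid plexus markers' summed level in the 6 clusters was 0.154 in WT and 10.6 in iKD cells, and that of the glucocorticoid response genes 20.98 and 15.4. The microglia markers had a summed level of 407.5 in WT and 402 in iKD cells. The dissociation response genes had a summed level of 87.7 in WT and 95 in iKD, with log2 ratios of 0.20 for Fos and 0.13 for Jun, while the heat shock genes Hspa1a (0.152 and 0.0669) and Hspa1b (0.0418 and 0.00673) went the other way. Their part in the ratios was not tested.

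Within single clusters few members passed the 0.25 limit between genotypes, and fewer as a share than among all genes. The count was 3 of 37 in qNSC1 (43.5% of all genes), 3 of 36 in qNSC2 (33.7%), 7 of 35 in aNSC (46.2%), 1 of 36 in NSPCs (12.2%), 0 of 36 in IPC1 (11.6%), 0 of 36 in IPC2 (14.4%), 1 of 36 in eNB (10.2%) and 1 of 36 in NB (24.3%). Genes with few UMIs in a small cluster can pass this limit through counting error, and the size of that share was not tested. Most members lay well above the floor, and all genes were not matched to them in level, so the lower shares are a description. The member in NB was Cd63, with 2.63 in WT and 1.80 in iKD cells, a log2 ratio of -0.54 (-0.70 to -0.39). It was lower in iKD in both sexes of that cluster, from 2.79 to 1.94 in female and from 2.36 to 1.48 in male cells. In qNSC1 its ratio was -0.24 (-0.35 to -0.14), and over the 6 clusters 0.012 (-0.035 to 0.058). Over the 6 clusters the sexes went opposite ways, with -0.15 (-0.21 to -0.095) in female and 0.14 (0.061 to 0.23) in male cells.

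The summed level's ratio within clusters ran from -0.093 (-0.11 to -0.077) in aNSC to 0.041 (0.032 to 0.050) in NB. In aNSC the sexes were unequal, with 19.3% female cells in WT and 88.9% in iKD, so sex moved with genotype there. In the female cells of aNSC alone, 38 WT and 96 iKD cells, the ratio of the sum was -0.15 (-0.17 to -0.12), while only 6 of the iKD cells were male.

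The rest of the lysosome was followed with 102 further genes in 7 lists, of which 85 passed the floor between genotypes and 85 over the 8 clusters. Between genotypes 0 of the 85 were lower past the limit, beside 2.18% of all genes, and 0 were higher, beside 1.94%. The median log2 ratio of these genes was -0.02. Their ratios ran from -0.245 for Galns (-0.49 to -0.0018, levels of 0.116 in WT and 0.0965 in iKD) to 0.23 for Arsb (0.19 to 0.27, levels of 3.06 and 3.60), a pair of sulfatases. In qNSC1, 40 of the 85 were higher and 18 lower past the limit, beside 22.8% and 27.4% of all genes, and the counts of the single lists below stand against the same shares.

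The V-ATPase, the proton pump that acidifies the lysosome, had 13 of 16 genes higher in qNSC1 and 0 lower, led by Atp6v0c (11.5 against 3.91, log2 fold 1.55) and Atp6v1a (0.97). Of the 6 further cathepsin inhibitors Cstb, cystatin B, alone passed the floor over the 8 clusters, at 1.96 in qNSC1 against 0.491. Cst7, cystatin F, reached the floor in qNSC1 alone, at 0.396 against 0.0417. Of the further hydrolases 10 of 28 were higher and 7 lower, the latter close to the share among all genes, and Dpp7 (1.33) and Scpep1 (1.15) led the higher ones. Membrane and transport genes had 6 of 19 higher and 6 lower, sorting receptors 4 of 8 each way, and the mTORC1 scaffold 4 of 10 higher and 1 lower. These lists are short, and 1 gene moves such a share by much. Of the transcription factors of the CLEAR network, Mitf was higher in qNSC1 by 0.58 and Tfeb by 0.33, while Tfe3 had a log2 fold of 0.05. The members with TCACGTG in the promoter window had a median log2 fold in qNSC1 of 0.50 and those without it 0.33, and between genotypes both medians were -0.01. This split covers the 34 members with a promoter, so Ctsb is left out, while Gla and Sgsh, under the floor over the 8 clusters, are included. The split was not made for all genes, and a part of the motif or of these factors was not tested.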

How the data were processed

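Single-cell RNA of EYFP+ cells was measured with 10x 3′ libraries, 1 per genotype. Per the study's methods, the authors demultiplexed, aligned and deduplicated reads with Cell Ranger 7.0.1 and filtered, normalized, integrated and clustered cells with Seurat 4.1.1. The deposited values are the natural log of 1 plus a cell's count of a gene per 10,000 UMIs, in 1 table per cluster. The submitters' processing notes name a human build, GRCh38; the build of the alignment is not given in the sources used here, and coordinates come from GRCm38.p6. Whole UMIs were recovered from 100% of the 32261786 values above 0, to within 0.001 UMI, and all 10804 deposited cells were used. The study's methods give limits on genes per cell against multiplets and damaged cells, the lower being 2000, which 10308 of the deposited cells reach. No doublet caller was run here. The sums range from 1471 to 11998 UMIs per cell.

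Levels are means over cells of counts per 10,000, and ratios are log2 of (level + 0.01). Contrasts used genes with a mean level of at least 0.1 over the groups compared and a limit of 0.25. For counts in qNSC1 the floor was set on the mean over the 8 clusters, a choice made after the data were seen. Intervals are exact Poisson for UMI sums and exact binomial for shares, at 95%, and cover counting error only. Cells were called female with a Xist UMI and none of the 4 Y-linked genes, and male in the reverse case. For equal depth, cells were thinned to 4500 UMIs, which left out 263 WT and 357 iKD cells. The calculation was tested on simulated data for the pooled genotype comparison over 32285 genes, where 200 of 200 changed genes came out in the direction they were given and the interval held the given ratio for 192. The simulated counts varied by counting error only, so variation between cells, clusters or mice was no part of this test. The given changes were larger than the pooled genotype ratios of the members. Values are given in full for the 10 members of highest level, the 5 most positive and 5 most negative genotype ratios, and the 5 widest ranges over the 8 clusters. The members, lists and rules were chosen with earlier results of these data known. Python 3.11.15, numpy 2.4.6, scipy 1.17.1 and pandas 2.3.3 were used.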

Additional observations from a re-analysis of the deposited data

How the results depend on the processing

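Scaling, pseudocount, floor, cell filters, sexes, thinning and the choice of clusters were varied in 14 ways, and the lists for qNSC1, NSPCs and qNSC2 and the sum without Cst3 were added after the data were seen. The counts of members lower and higher in iKD were 0 under all 14. The summed log2 ratio of iKD over WT was -0.0285 after division by the median ratio over genes, -0.0807 in female cells, 0.0295 in male cells and -0.0207 as the mean of the 6 ratios within clusters. The same settings gave -0.0213, -0.0492, 0.0107 and -0.0217 without Cst3, and thinned cells -0.0141. The log2 of the highest over the lowest cluster was 0.45 with summed UMIs as CPM, 0.47 in female cells, 0.43 in male cells and 0.43 without the 5% of cells with the most genes. The members higher in NSPCs numbered 4 with a pseudocount of 1 and 7 in the iKD library alone. Members higher in qNSC1, counted with Gla where it reached the floor, numbered 17 to 24, and in qNSC2 5 to 7. The causes of these shifts were not tested. Of 308 ratios of the 22 named members, 281 stayed within the counting interval of the reported value, 27 did not, and 0 passed the 0.25 limit. No paired analysis was possible because each genotype was 1 library. For Mcoln1, Gla and Sgsh, with few UMIs, the counting intervals of the genotype ratio reached past the 0.25 limit on at least 1 side. The mean within clusters, the median scaling and the choice of 8 clusters gave no value for the range over clusters.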

Other observations

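In the astrocyte-named cluster, low in most of the 38 genes, 9 of 16 V-ATPase genes past the floor were higher than over qNSC1 to NB by at least 0.25 on the log2 scale and 4 were lower, beside 34.7% and 55.6% of all genes. Atp6v1e1 stood at 6.15 against 1.06, a log2 fold of 2.52, and Atp6v1d at 4.17 against 0.761, a log2 fold of 2.44. The genes that were lower were Tcirg1 (-1.93), Atp6v0a1 (-1.92), Atp6v0b (-1.19) and Atp6ap1 (-1.05). Of these 134 cells 130 came from the iKD library, so the values are nearly those of 1 library.

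Cd63 was higher in female than in male cells, with a counting interval above 0, in 4 of the 8 pairs of cluster and library compared, and lower in 0. Such a share was not taken over all genes. Each library pooled 5 mice, and the number of each sex among them is not given in the sources used here. The clusters of a library share these mice, so the 8 pairs are not separate observations. In the WT library of qNSC2 its level was 3.52 in female and 2.16 in male cells, a log2 ratio of 0.70 (0.41 to 1.01), and in the iKD library of that cluster 2.55 and 2.56. In NSPCs the log2 ratio was 0.30 (0.15 to 0.45) in WT and 0.18 (-0.02 to 0.39) in iKD cells, and in NB 0.24 (0.02 to 0.46) and 0.39 (0.05 to 0.74). In qNSC1 it was 0.08 (-0.07 to 0.24) and -0.04 (-0.20 to 0.12). Differences between the libraries were not tested.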
